A study of Mus musculus with 6 samples.

Results

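The core genes of the Hedgehog pathway were examined in the embryonic gut epithelium: the ligand genes *Shh*, *Ihh* and *Dhh*, the receptor gene *Ptch1*, the signal transducer gene *Smo*, the ligand-binding inhibitor gene *Hhip* and the transcription factor genes *Gli1*, *Gli2* and *Gli3*. These 9 genes were chosen by name out of 23366 genes in the count tables, with earlier results of these data known. Reads were counted for 8 of the 9, and 5 (*Shh*, *Ihh*, *Ptch1*, *Smo* and *Gli3*) had enough counts to be among the 12501 genes tested. *Dhh*, *Hhip*, *Gli1* and *Gli2* had too few reads for that and are given as read counts without a test.

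The study asked how TCF7L1, a WNT pathway transcription factor of the TCF/LEF family that mostly represses its targets, acts in the developing mouse small intestine. RNA was sequenced from the small intestine epithelium of mouse embryos at embryonic day (E) 13.5, from 500 EpCAM-positive cells sorted for each library. There were 3 mutant libraries, of genotype Shh-cre-egfp:Tcf7l1 lox/lox, and 3 wild type libraries. In the mutants, Cre recombinase made from the *Shh* locus, and so in cells that express *Shh*, cuts out the floxed part of *Tcf7l1*. The Shh-cre-egfp allele is a knock-in that disrupts the copy of *Shh* it sits in, and the wild type group is not described as carrying it. Loss of *Tcf7l1* and the knock-in at *Shh* therefore cannot be told apart for any gene below, *Shh* first of all. The sources used here do not give whether embryos were pooled for a library.

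Hedgehog ligands are secreted proteins that bind Patched receptors on receiving cells. Unbound Patched keeps Smoothened (SMO) inactive, and bound Patched releases it, upon which SMO acts in the primary cilium on the GLI transcription factors. GLI2 is mainly an activator and GLI3 mainly a repressor, whereas *Gli1*, *Ptch1* and *Hhip* are themselves switched on by the pathway. In the gut, the epithelium makes SHH and IHH, and the surrounding mesenchyme is the main receiving tissue.

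The ligand genes are paralogs, so the sequence that tells their reads apart is shown here for the second of their 3 exons, which is wholly coding and 262 bases long in each. It lies at chr5:28787862-28788123 in *Shh*, at chr1:74994878-74995139 in *Ihh* and at chr15:98725244-98725505 in *Dhh*, all on the minus strand of mm9. Capitals in *Ihh* and *Dhh* mark bases that differ from *Shh*.
Shh exon 2: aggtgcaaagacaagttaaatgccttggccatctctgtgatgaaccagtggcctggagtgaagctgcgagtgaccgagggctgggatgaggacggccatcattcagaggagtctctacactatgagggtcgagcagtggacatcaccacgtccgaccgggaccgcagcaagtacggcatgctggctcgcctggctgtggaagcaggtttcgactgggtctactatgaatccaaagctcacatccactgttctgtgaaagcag
Ihh exon 2: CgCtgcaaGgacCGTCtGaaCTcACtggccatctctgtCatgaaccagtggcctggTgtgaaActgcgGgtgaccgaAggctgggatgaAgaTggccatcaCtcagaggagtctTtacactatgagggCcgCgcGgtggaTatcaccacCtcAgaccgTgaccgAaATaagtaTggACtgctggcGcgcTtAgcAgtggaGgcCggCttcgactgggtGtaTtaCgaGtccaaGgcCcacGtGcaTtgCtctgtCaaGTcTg
Dhh exon 2: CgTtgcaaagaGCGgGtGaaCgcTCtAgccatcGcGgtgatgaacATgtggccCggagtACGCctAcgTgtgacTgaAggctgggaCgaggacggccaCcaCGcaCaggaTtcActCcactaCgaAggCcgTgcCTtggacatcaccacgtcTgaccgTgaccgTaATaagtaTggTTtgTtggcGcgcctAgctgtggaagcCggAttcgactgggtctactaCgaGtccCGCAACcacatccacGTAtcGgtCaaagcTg

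Over this exon *Ihh* shared 207 of 262 bases with *Shh*, an identity of 79%, and *Dhh* shared 197 (75.2%). The longest run without a difference between *Shh* and *Ihh* was 17 bases, also over the whole coding sequence, so the differences are spread along the exon. Only reads that mapped to a unique place were counted. In the GENCODE annotation of mm9, *Shh* (ENSMUSG00000002633) spans chr5:28783355-28793641 and *Ihh* (ENSMUSG00000006538) spans chr1:74991891-74998246, both on the minus strand. Non-coding genes on the opposite strand overlap 24.2% of the exon bases of *Shh*, while none of the exon bases of *Ihh* are overlapped. One of those genes, 9530036O11Rik, was counted at 34.4 ± 17.9 normalized counts in wild type libraries and 23.5 ± 1.67 in mutant ones (SD, n = 3), and whether counting used strand is not given in the sources used here.

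Total counts lay between 18216537 and 20397278 per library. The deposited counts of *Tcf7l1*, the deleted gene, were 383 to 508 in wild type libraries and 31 to 66 in mutant ones. *Xist* had 0 counts in each wild type library and 229 to 424 in the mutant ones, while the Y-linked *Ddx3y* had 1837 to 2254 in wild type libraries and 0 in mutant ones. The groups thus also differed in sex, and genotype and sex cannot be told apart. The sorting marker *Epcam* had a mean normalized count of 51986 ± 4624 in wild type libraries and 61669 ± 2107 in mutant ones (SD, n = 3). Of 12501 tested genes, 729 were called lower in mutant libraries (5.83%) and 348 higher (2.78%), a call being an adjusted p below 0.01 (edgeR's quasi-likelihood test, Benjamini-Hochberg), a log2 fold change of 0.5 or more in size and 50 or more normalized counts on average.

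Among the Hedgehog genes, both ligand genes of the gut epithelium, *Shh* and *Ihh*, were lower in the mutant epithelium, at 41.1% and 48.2% of their wild type levels. None of the 5 tested genes was called higher, by edgeR or by DESeq2, beside 2.78% of all tested genes by edgeR. *Dhh*, *Hhip*, *Gli1* and *Gli2* had too few reads to be called either way. None of the 5 had a higher level at an unadjusted p below 0.05, where 18.6% of all tested genes did. At the same unadjusted p, 4 of the 5 were lower (*Shh*, *Ihh*, *Ptch1* and *Smo*), beside 21.6% of all tested genes. *Ptch1*, *Smo* and *Gli3* had lower means in mutant libraries but were not called. The 2 of 5 tested genes called lower stand beside 5.83% of all tested genes. The wild type and mutant libraries did not overlap for 2 of the 5 (*Shh* and *Ihh*), beside 43.0% of all tested genes.

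**Figure D1:**
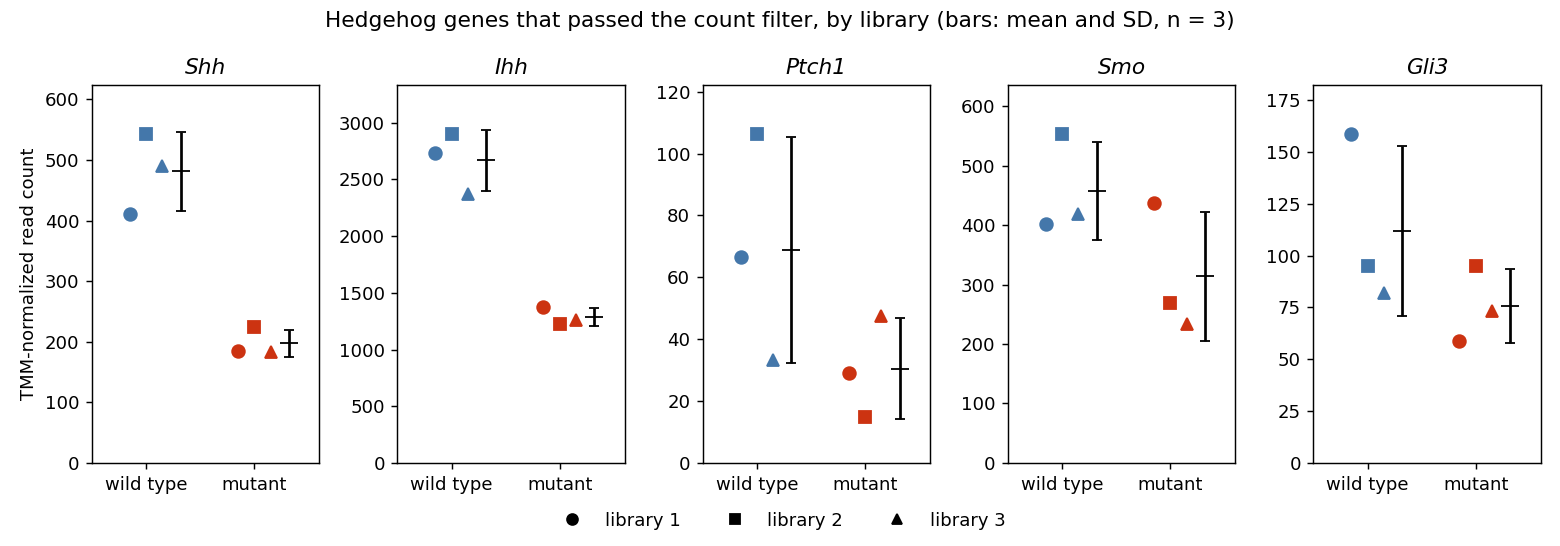
TMM-normalized read counts of the Hedgehog genes in each library (points) with the group mean and SD (bars), wild type beside mutant. The mutant libraries of *Shh* and *Ihh* lie below every wild type library, while the groups overlap for *Ptch1*, *Smo* and *Gli3*.

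*Shh*, the ligand gene that also marks the early gut epithelium, had 412, 543 and 489 normalized counts in wild type libraries 1 to 3 and 185, 224 and 184 in mutant libraries 1 to 3. The highest mutant library thus lay well below the lowest wild type library, and the spread within each group was small beside the gap. Its mean fell from 481 ± 65.8 to 198 ± 22.6 (SD, n = 3), a log2 fold change of -1.28 (SE 0.17, 95% interval -1.64 to -0.92, adjusted p = 6.08e-05, edgeR's quasi-likelihood test, Benjamini-Hochberg). The mutant level was 41.1% of wild type over the summed counts, with an exact interval of 37.2% to 45.3% that covers counting error only. In a bulk library, fewer cells that express a gene and less RNA in each of them cannot be told apart.

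*Ihh*, the ligand gene that predominates in the differentiating intestinal epithelium, had 2735, 2898 and 2371 normalized counts in wild type libraries and 1373, 1223 and 1260 in mutant libraries. Here too the groups were far apart, and the mutant libraries lay close together. The mean fell from 2668 ± 270 to 1285 ± 78.3 (SD, n = 3), a log2 fold change of -1.05 (SE 0.094, 95% interval -1.25 to -0.85, adjusted p = 1.04e-06, edgeR's quasi-likelihood test, Benjamini-Hochberg). The mutant level was 48.2% of wild type, with a counting interval of 46.3% to 50.1%.

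*Dhh*, the ligand gene known from testis and peripheral nerve, was close to absent, with 0, 0 and 2 reads in wild type libraries and 0, 1 and 15 in mutant libraries. Of the 16 mutant reads, 15 were in mutant library 3, so the difference between the groups is that of a lone library. The same library had the highest summed level of enteric neural crest markers (416 normalized counts, against 213 to 281 in the other libraries), and the part of these cells in the *Dhh* reads was not tested.

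*Ihh* made up 82.8% to 88.1% of the ligand counts of a library. The sum of *Shh*, *Ihh* and *Dhh* was 3147, 3441 and 2863 normalized counts in wild type libraries and 1558, 1447 and 1460 in mutant libraries. Whether *Shh* fell further than *Ihh* was tested by their ratio within each library, which does not depend on scaling. *Shh* counts were 15.0%, 18.7% and 20.6% of *Ihh* counts in wild type libraries and 13.5%, 18.3% and 14.6% in mutant libraries. These ranges overlap. The mean log2 ratio was -2.48 ± 0.23 in wild type libraries and -2.71 ± 0.23 in mutant ones (SD, n = 3), a difference of -0.23 (exact two-sided permutation test, p = 0.2, where the smallest p that 3 against 3 libraries allow is 0.1). A different fall of the ligand genes was therefore not detectable at this number of libraries.

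**Figure D2:**
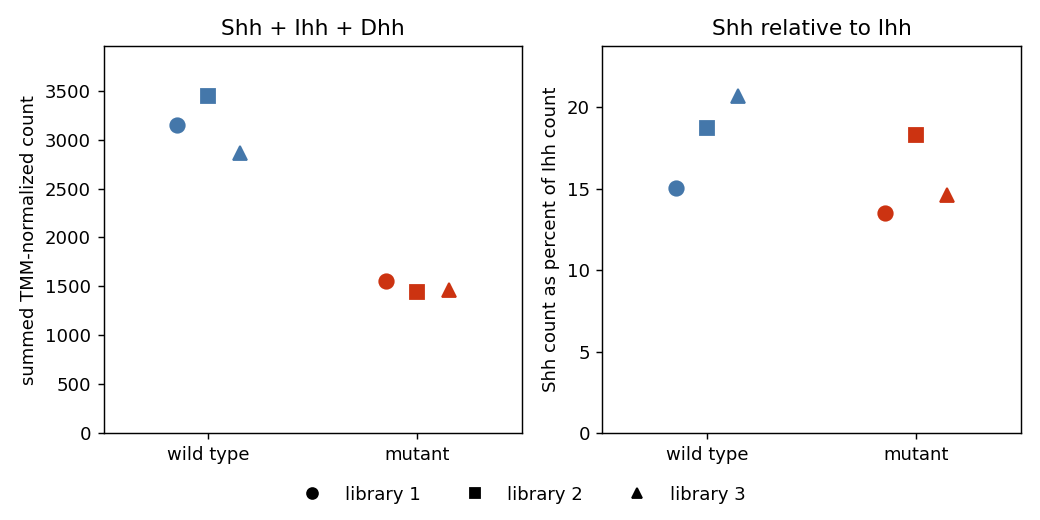
The sum of *Shh*, *Ihh* and *Dhh* normalized counts in each library, and the *Shh* count as a percent of the *Ihh* count in the same library, for wild type and mutant. The summed level is 1447 to 1558 in mutant libraries and 2863 to 3441 in wild type ones, whereas the ratios overlap.

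*Ptch1* encodes the main Hedgehog receptor and is also a target of the pathway. It had 66.6, 106 and 33.3 normalized counts in wild type libraries and 29.0, 14.9 and 47.6 in mutant libraries. Mutant library 3 lay above wild type library 3, so the groups overlapped, and the wild type libraries were widely spread. The means of 68.7 ± 36.6 and 30.5 ± 16.4 (SD, n = 3) gave a log2 fold change of -1.17 (SE 0.50, 95% interval -2.23 to -0.12, adjusted p = 0.0894, edgeR's quasi-likelihood test, Benjamini-Hochberg). The estimate was of about the size seen for the ligand genes, with an SE several times as large, and did not pass the threshold. The mean of 49.6 normalized counts over the 6 libraries also lay below the 50 that a call needs. With no minimum count *Ptch1* was still not called.

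*Smo* encodes the transducer that Patched holds inactive. It had 401, 553 and 418 normalized counts in wild type libraries and 438, 269 and 233 in mutant libraries. Mutant library 1 lay within the wild type range and the other mutant libraries below it. The log2 fold change was -0.54 (SE 0.21, 95% interval -0.99 to -0.09, adjusted p = 0.0654, edgeR's quasi-likelihood test, Benjamini-Hochberg) between means of 457 ± 83.0 and 314 ± 109 (SD, n = 3). Without mutant library 1 it was -0.86 with an adjusted p of 0.00811, which meets the call, so that library decides whether *Smo* is called lower.

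*Hhip*, whose product binds and holds back Hedgehog ligands and whose gene is a pathway target, had 0 reads in all 6 libraries. A sum of 3 reads over a group, the upper limit that a count of 0 allows, would be a level of 0.00984 CPM per kilobase of exon in wild type libraries and 0.0112 in mutant ones. Expression below that was not detectable at this depth. *Gli1*, the most widely used readout gene of the pathway, had 0, 5 and 1 reads in wild type libraries and 0 in each mutant library. Wild type library 2 held 5 of the 6 reads, and so few reads give no comparison between the groups. *Gli2* had 0, 2 and 0 reads in wild type and 0, 1 and 0 in mutant libraries.

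*Gli3*, which encodes the factor that acts mainly as a repressor when the pathway is off, was the only GLI gene with enough counts to be tested. It had 158, 95.1 and 81.7 normalized counts in wild type libraries and 59.0, 94.8 and 73.0 in mutant libraries. The groups overlapped, with mutant library 2 next to wild type library 2, and wild type library 1 stood above the others. The means were 112 ± 41.0 and 75.6 ± 18.0 (SD, n = 3), and the log2 fold change of -0.56 (SE 0.32, 95% interval -1.24 to 0.11) did not pass the test (adjusted p = 0.197, edgeR's quasi-likelihood test, Benjamini-Hochberg).

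**Figure D3:**
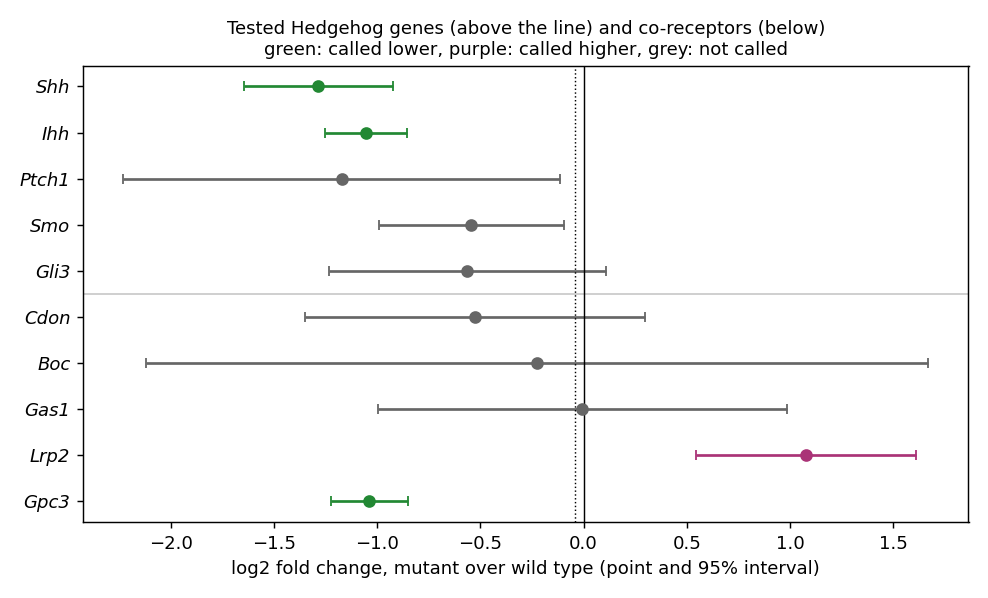
Log2 fold changes (mutant over wild type) of the 5 tested Hedgehog genes with their 95% intervals. Below the dividing line are the 5 tested genes for co-receptors and other ligand-binding proteins. Of these, *Gpc3* at -1.04 was called lower and *Lrp2* at 1.08 higher. *Shh* at -1.28 and *Ihh* at -1.05 were called lower, the intervals of *Ptch1* and *Smo* end just below 0, and that of *Gli3* includes 0.

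To set the genes beside each other, levels were expressed as CPM (counts scaled to TMM-normalized library size) per kilobase of exon. In wild type libraries *Ihh* was highest at 55.4 ± 5.61 and exceeded 92.6% of genes. *Shh* followed at 9.16 ± 1.25, above 75.7% of genes, and *Smo* at 6.20 ± 1.13, above 71.4% (SD, n = 3). These shares are over all genes with an annotated exon length, including genes without reads. Of the 23366 genes, 17112 had reads. *Ihh* stood apart from all others, and the ranges of *Shh* (7.84 to 10.3) and *Smo* (5.44 to 7.50) did not overlap.

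*Gli3* and *Ptch1* were an order of magnitude lower, at 0.597 ± 0.219 and 0.535 ± 0.285, with overlapping ranges. Their order also turned when the longest transcript was used as the length, to 0.818 for *Ptch1* and 0.701 for *Gli3*. *Gli1* (0.0253), *Dhh* (0.0137) and *Gli2* (0.0046) rested on 6 reads or fewer in wild type libraries. In mutant libraries *Ihh* was again highest, at 26.7 ± 1.63, but *Shh* (3.76 ± 0.43) and *Smo* (4.25 ± 1.48) then overlapped.

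**Figure D4:**
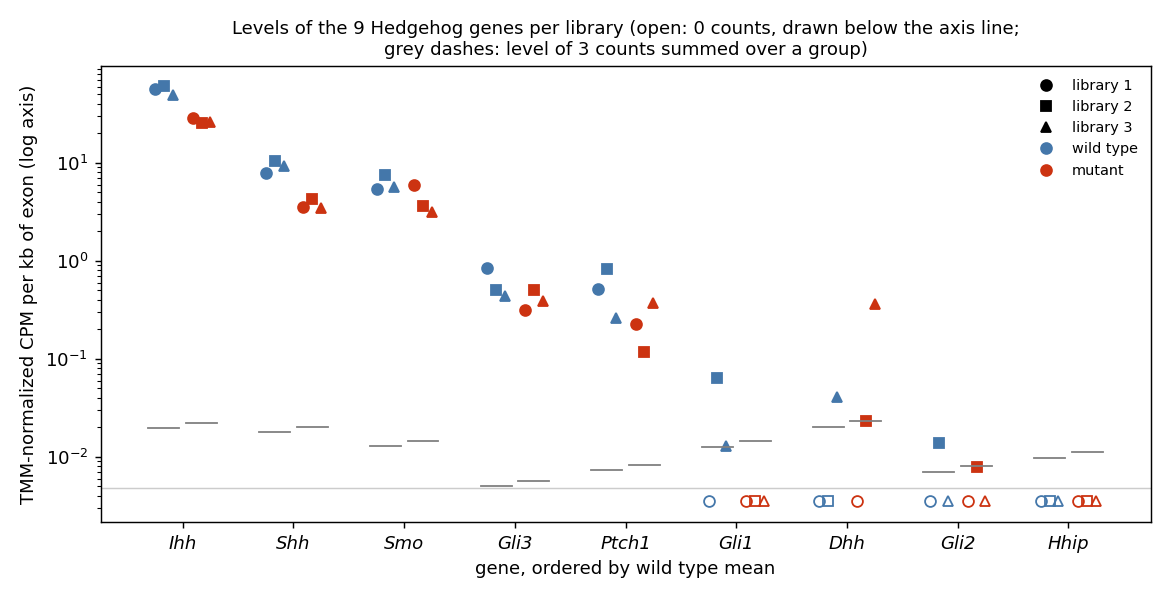
Level of each Hedgehog gene in CPM per kilobase of exon, on a log axis, for the wild type and mutant libraries (points). In wild type libraries the mean of *Ihh* is 55.4, of *Shh* 9.16 and of *Smo* 6.20, with *Gli3* and *Ptch1* below 1.

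Genes that act beside the core members were taken as lists. Of 6 genes for ligand processing and release, only *Hhat*, the acyltransferase that adds palmitate to the ligands, was tested. It had 166 ± 5.64 normalized counts in wild type libraries and 175 ± 45.0 in mutant ones (SD, n = 3), a log2 fold change of 0.08 (adjusted p = 0.826, edgeR's quasi-likelihood test). *Disp1*, *Scube1* and *Scube2*, genes for release of the lipid-bearing ligand, had 0 reads in all libraries, and *Scube3* had 0, 19 and 10 reads in wild type and none in mutant libraries.

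Of 6 genes for co-receptors and other ligand-binding proteins, 5 were tested, with a median log2 fold change of -0.22 beside -0.04 over all tested genes. One was called lower and one higher, 1 of 5 each way, beside 5.83% and 2.78% of all tested genes. *Gpc3*, a cell surface proteoglycan that binds Hedgehog ligands and competes with Patched for them, had 10135, 8783 and 9697 normalized counts in wild type and 4840, 4017 and 5092 in mutant libraries. The groups were far apart. Its log2 fold change was -1.04 (SE 0.088, adjusted p = 5.99e-07, edgeR's quasi-likelihood test), close in size to that of *Ihh*. *Gpc3* is X-linked, and the part of sex in its difference was not tested.

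*Lrp2*, an endocytic receptor that binds SHH, went the other way, with 109, 66.2 and 105 normalized counts in wild type and 159, 214 and 219 in mutant libraries. The groups did not overlap, and the log2 fold change was 1.08 (SE 0.25, adjusted p = 0.00506, edgeR's quasi-likelihood test). The call was lost with library size as the only scaling (adjusted p = 0.0121) and when wild type library 1 (0.0113), wild type library 2 (0.0264), mutant library 2 (0.0240) or mutant library 3 (0.0236) was left out. The co-receptor genes *Cdon* (-0.53, adjusted p = 0.334), *Boc* (-0.22, 0.875) and *Gas1* (-0.01, 0.994) did not pass edgeR's test.

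Of 22 genes that relay the signal between SMO and the GLI factors, 21 were tested and none was called by edgeR or DESeq2. At an unadjusted p below 0.05, 3 were higher and 6 lower, beside 18.6% and 21.6% of all tested genes, and the median log2 fold change was -0.27 beside -0.04 over all tested genes. The most abundant, *Csnk1a1*, a casein kinase gene whose product phosphorylates GLI proteins, had 8467 ± 213 normalized counts in wild type libraries and 8622 ± 192 in mutant ones (SD, n = 3). *Spop*, for an adaptor that targets GLI proteins for degradation, had 3757 ± 265 and 4353 ± 75.4 (log2 fold change 0.21, adjusted p = 0.0409, edgeR's quasi-likelihood test). It met neither the fold nor the adjusted p required for a call. *Sufu*, the main cytoplasmic inhibitor of GLI proteins, was picked out after its values were seen. It had 230, 158 and 105 normalized counts in wild type and 90.1, 70.3 and 81.9 in mutant libraries, which do not overlap, and a log2 fold change of -1.03 that missed the threshold (adjusted p = 0.0150, edgeR's quasi-likelihood test). It was called lower with no filter on low counts (adjusted p = 0.00459) and without wild type library 3 (0.00264).

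All 22 listed genes of the primary cilium were tested. Of these, 20 had a log2 fold change below 0, beside 54.3% of all tested genes, the median was -0.33, and the median was below 0 in every alternative. However, only 2 of the 22 (9.09%) were called lower, beside 5.83% of all tested genes, and none higher, by edgeR or by DESeq2. At an unadjusted p below 0.05, 8 were lower and none higher, beside 21.6% and 18.6% of all tested genes. *Ift81*, of the intraflagellar transport machinery, had a mean of 984 ± 99.4 normalized counts in wild type against 642 ± 34.7 (-0.62 on the log2 scale, adjusted p = 0.00123, edgeR's quasi-likelihood test). *Rpgrip1l*, for a protein of the ciliary transition zone, had 172 ± 33.0 against 83.5 ± 14.2 (-1.04, adjusted p = 0.00623). The call of *Ift81* was lost without wild type library 1 (adjusted p = 0.0127), and that of *Rpgrip1l* in each leave-one-out fit other than that without wild type library 1 (0.0115 to 0.0319).

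**Figure D5:**
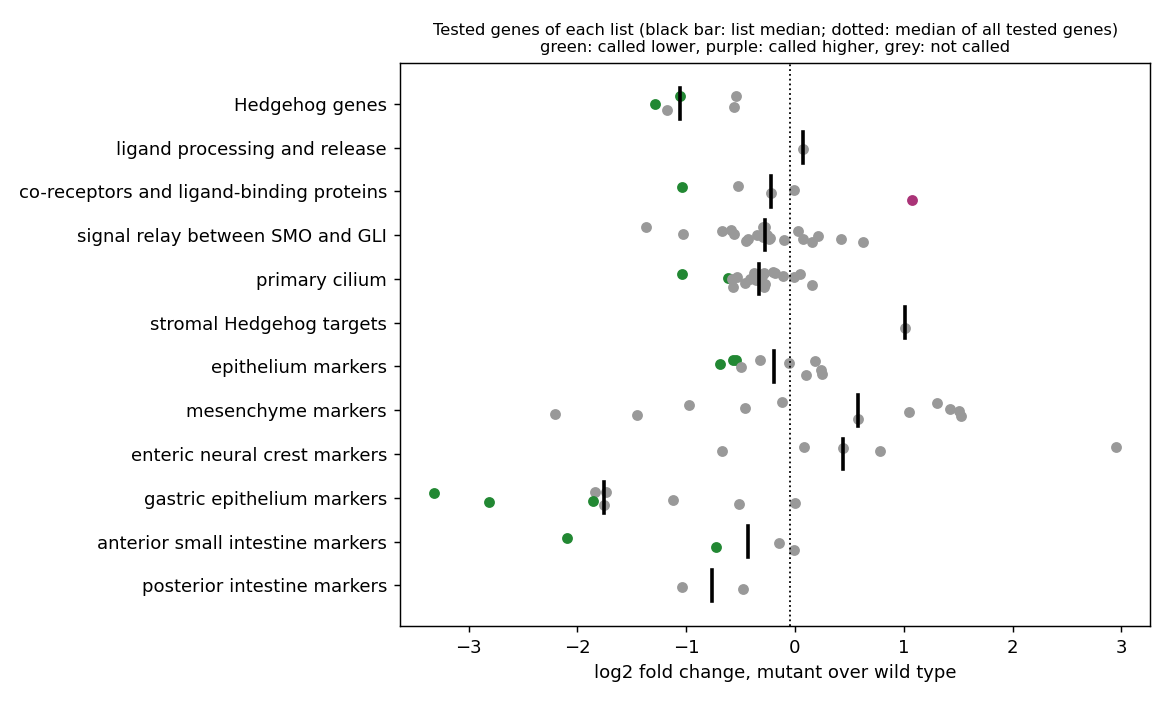
Log2 fold changes (mutant over wild type) of the tested genes in each pathway and marker list, with called genes coloured and the list median as a bar. The cilium list has a median of -0.33 and the gastric list one of -1.75, against a median of -0.04 over all tested genes.

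The stromal genes that receive the signal were close to background in these sorted cells. Of 7 stromal Hedgehog targets only *Osr1* was tested, with 0, 15 and 4 reads in wild type and 16, 3 and 15 in mutant libraries. *Foxl1* had 0 reads, and *Foxf1*, a mesenchymal target of gut Hedgehog signals, had 11, 10 and 8 reads in wild type and 7, 0 and 10 in mutant libraries. *Bmp4* had at most 8 reads in any library.

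Markers of other cell types were therefore read beside *Ptch1*, *Gli1*, *Gli2* and *Gli3*. The 20 mesenchyme markers summed to 1475 to 1776 normalized counts in wild type libraries and 1170 to 2112 in mutant ones, of which *Vim* alone was 1252 ± 119 and 913 ± 49.4 (SD, n = 3). The mean was lower in mutant libraries for 11 of the 20 markers and higher for 8, with 1 at 0. Some fibroblast genes were scarce, *Col1a1* with 18, 0 and 2 reads in wild type and 0, 1 and 0 in mutant libraries, *Pdgfra* with 23, 6 and 21 against 0, 0 and 1, and *Col1a2* with 5, 0 and 5 against 9, 10 and 0. Others had fewer reads summed over mutant than over wild type libraries. These were *Col3a1* (96 in wild type and 18 in mutant), *Pdgfrb* (107 and 34), *Postn* (137 and 111) and *Lum* (50 and 22). *Dcn* had 86 and 16 reads, 83 of them in wild type library 1. *Acta2*, a smooth muscle gene, had 279 and 695 reads summed over the groups, 442 of them in mutant library 3. None of the 11 tested mesenchyme markers was called, by edgeR or by DESeq2. At an unadjusted p below 0.05 there were 3 higher and 2 lower, beside 18.6% and 21.6% of all tested genes. Other edgeR fits did call some, namely the smooth muscle genes *Acta2*, *Actg2* and *Tagln* higher without mutant library 1 and with no filter on low counts, and *Vim* lower with library size as the only scaling and with the gene-length trend removed. The part of stromal cells in the *Ptch1* and GLI reads was not tested.

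Endothelium markers summed to at most 21.7 and blood markers to at most 6.21 normalized counts in any library, with 4 of 6 genes of each list at 0 throughout. The 8 enteric neural crest markers summed to 213 to 256 in wild type libraries and 213 to 416 in mutant ones. All 10 epithelium markers were tested and their sum differed little, from 172912 to 183232 in wild type libraries and 169851 to 174636 in mutant ones. Within that list *Krt18* (log2 fold change -0.54, adjusted p = 2.74e-05), *Cdh1* (-0.57, 0.00102) and *Cdx2*, the master regulator of intestinal identity (-0.68, 0.00349), were called lower by edgeR, 30% of the list beside 5.83% of all tested genes. *Cdx2* lost the call without wild type library 1 (adjusted p = 0.0114) or 2 (0.0287) and without mutant library 1 (0.0127) or 2 (0.0216). *Cdh1* fell short of the fold required without wild type library 2 or mutant library 2, and *Krt18* without wild type library 3 or mutant library 3.

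Lists of regional epithelium were read beside the ligand genes. Of 13 gastric epithelium markers 9 were tested, 3 were called lower (33.3%, beside 5.83% of all tested genes) and none higher, and the summed level was 2011 to 2501 normalized counts in wild type libraries and 450.4 to 659 in mutant ones. *Ctse* (log2 fold change -3.32), *Cldn18* (-2.81) and *Vsig1* (-1.85) were the called genes. The 5 anterior small intestine markers summed to 4601 to 5775 in wild type libraries and 4010 to 4186 in mutant ones, with *Pdx1* (-2.09) and *Onecut2* (-0.72) called lower and *Gata4* (-0.14) and *Gata6* (-0.01) not called. Of 7 posterior intestine markers 4 had 0 reads throughout, and neither of the pair tested was called. Their sum of 2810 to 3159 in wild type libraries against 1979 to 2197 was nearly all *Osr2* (means of 2858 and 2047, log2 fold change -0.48), whose size of change lay just below the fold required. The part of the regional makeup of the sorted epithelium in the *Shh* and *Ihh* difference was not tested.

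The genes around each ligand gene were examined for a change shared along the chromosome. Of 11 annotated genes with a start within 1 Mb of that of *Shh*, 7 were tested and none was called by edgeR or DESeq2, with 1 at an unadjusted p below 0.05. Their log2 fold changes ran from -0.55 (9530036O11Rik) to 0.13, all smaller in size than the -1.28 of *Shh*. *Ihh* lies in a gene-rich region, with 36 of 55 annotated neighbours tested. Of these, 3 were called lower (*Chpf*, -0.60, *Obsl1*, -0.72, and *Speg*, -2.15) and none higher by edgeR, DESeq2 also called 3 lower and none higher, and 14 had an unadjusted p below 0.05, where 40.3% of all tested genes did. The 3 of 36 called lower are a share near the 5.83% of all tested genes. The median over the 36 was -0.22.

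The promoter of *Ihh*, the most abundant member, is shown because the gene fell and its upstream sequence could be read for sites of the TCF/LEF, GLI and FOXA factor families. The 250 bases before its start are at chr1:74951673-74951922 of GRCm38.p6 in RefSeq, a later build than the mm9 of the counts, and are written along the minus strand with no capitals because no searched motif matched.
Ihh promoter: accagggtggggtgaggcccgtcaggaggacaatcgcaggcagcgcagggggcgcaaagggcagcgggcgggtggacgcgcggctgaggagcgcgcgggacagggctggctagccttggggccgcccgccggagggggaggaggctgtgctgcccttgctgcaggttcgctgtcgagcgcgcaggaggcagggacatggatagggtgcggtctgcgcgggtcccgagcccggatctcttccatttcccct

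This stretch is 72% G and C and holds 24 CpG, where the median G and C content of 32851 RefSeq promoter windows is 52.4%. Motifs were searched on both strands from 250 bases before to 50 after the start. For the TCF/LEF family AACAAAG was found in 5.85% of all promoters, ATCAAAG in 3.73%, TACAAAG in 3.63% and TTCAAAG in 5.14%, and any of these in 16.9%. The GLI motif GACCACCCA was found in 0.253% and the FOXA motif TGTTTAC in 3.65%. Promoters were held for 7 of the 9 members, all but *Shh* and *Gli1*. Of these 7, only *Smo* had a match, AACAAAG beginning at base 12 counted from the start, and none had the GLI or FOXA motif.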

How the data were processed

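Sorted E13.5 small intestine epithelium gave 6 libraries, 3 mutant and 3 wild type, made by the authors with the SMARTer v4 kit and 15 PCR cycles. According to the study's methods and the submitters' processing notes, the authors mapped reads to mm9 with STAR 2.5.2b and counted uniquely mapped reads per gene with featureCounts 1.5.1. The deposited values are these raw read counts, not normalized. The notes also name DESeq2 1.18.1 and deepTools. Groups were taken from the labels. Nothing in them says that libraries of a group came from separate embryos, so p-values measure the spread between these libraries.

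Counts were analysed in R 4.3.3 with edgeR 4.0.16 (TMM normalization, filterByExpr, quasi-likelihood test on genotype, Benjamini-Hochberg adjustment over 12501 genes). A call needed an adjusted p below 0.01, an absolute log2 fold change of 0.5 or more, and 50 or more normalized counts on average. The SE was derived from the test statistic. Normalized counts are TMM-scaled, and levels per kilobase use the union of exons of the GENCODE annotation of mm9, matched by symbol for 90.9% of genes. Counting intervals are exact, at 95%, and cover counting error only. Alternatives were DESeq2 1.42.0, fits that left out single libraries or blocked on replicate number, other scalings, filters and thresholds, and removal of a gene-length trend by loess (span 0.5). The method was tested on simulated data. The Hedgehog members and the lists were chosen with earlier results of these data known. Named genes were the members, at most 4 called genes of each list by adjusted p or, with fewer than 2 called, its most abundant genes, *Tcf7l1*, *Xist*, *Ddx3y*, neighbours within 1 Mb, and the 3 genes most like *Shh* and *Ihh* by root mean square difference of centred log2 CPM (prior count 2). Genes with few reads or at 0, and genes outside these rules, were named beside them after their values were seen. Python 3.11.15 with matplotlib 3.10.9 was used for sequences and plots. Some listed genes are not reported here.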

Additional observations from a re-analysis of the deposited data

How the results depend on the processing

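*Shh* and *Ihh* were called lower under every alternative run. Leaving out each library gave -1.38 to -1.19 for *Shh*, -1.12 to -0.99 for *Ihh*, -1.64 to -0.71 for *Ptch1*, -0.86 to -0.37 for *Smo* and -0.76 to -0.23 for *Gli3*. *Smo* was called only without mutant library 1 (-0.86), and *Ptch1* and *Gli3* under no alternative. Over all genes, 284 were lower and 85 higher at a log2 fold change of at least 1, and leaving out each library gave 405 to 867 lower and 260 to 516 higher. Wild type libraries 1 (405) and 2 (406) and mutant library 2 (463) each lowered the count of lower genes by over 1.5 times, where fewer samples were tested. With library size as the only scaling 200 genes were higher and 958 lower, the share of higher calls was 17.3% in place of 32.3%, and the median of all genes moved from -0.04 to -0.15. The *Shh* to *Ihh* difference lay between -0.36 and -0.13 over the leave-one-out values. The co-receptor median ran from -0.62 (without mutant library 3) and -0.55 (without wild type library 1) to 0.00 (without wild type library 2). Libraries that share a number did not deviate together (correlations of 0.0097, -0.0449 and -0.0179), and not every library correlated best with its own number. With a replicate block the values were -1.28 for *Shh*, -1.05 for *Ihh*, -1.14 for *Ptch1*, -0.58 for *Smo* and -0.53 for *Gli3*, the *Shh* to *Ihh* p was 0.25 (exact sign flips), and 339 genes were higher and 691 lower. The block changed no call of a member. With so few reads, *Dhh*, *Gli1*, *Gli2* and *Hhip* cannot be compared at this depth.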

Other observations

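The tested genes whose pattern over the 6 libraries was most like that of *Shh*, by the root mean square difference of centred log2 CPM, were *Rnf152* (0.0897), *Osbpl7* (0.101) and *Pdzk1* (0.104). *Rnf152* encodes a lysosomal ubiquitin ligase and *Pdzk1* a scaffold of brush border transporters. For *Ihh* they were *Tinag* (0.0597), *Rgs17* (0.0618) and *Npnt* (0.0645). *Tinag* encodes a basement membrane antigen and *Npnt* the integrin ligand nephronectin. All of them were lower in mutant libraries, a difference that the measure includes, and all but *Npnt* were called lower (edgeR's quasi-likelihood test, adjusted p = 0.0340 for *Npnt*).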
